A study of Mus musculus with 47 samples.

Results

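The neurotrophin genes described here are 8 rows of a hippocampal count table of 35486 genes, taken by name: the ligands Bdnf and Ntf3, the receptors Ntrk2 (TrkB), Ntrk3 (TrkC), Ngfr (p75) and Sort1 (sortilin), and the related secreted factors Vgf and Igf1. All 8 were found and all 8 passed the count filter, as did 17778 genes in all. RNA from the hippocampus of 47 male C57BL/6J mice was sequenced in bulk. The mice received platelet factor 4 (PF4), a chemokine that platelets release, or vehicle (Veh) by repeated intraperitoneal injection. The 4 groups were Young Veh (n = 13, 3.75 to 5.26 months of age), Young PF4 (n = 12, 4.08 to 5.03 months), Old Veh (n = 12, 17.47 to 19.97 months) and Old PF4 (n = 10, 17.4 to 20.23 months). No transgene or deletion separated the groups, each library was 1 mouse, and every mouse was male.

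Neurotrophins are secreted growth factors that are made as longer precursors, packed into vesicles and cut to the mature form inside or outside the cell. Mature BDNF binds TrkB and mature neurotrophin-3 binds TrkC, both tyrosine kinase receptors that signal through the MAP kinase, PI3 kinase and phospholipase C pathways, whereas the precursors bind p75 together with sortilin. In the hippocampus, BDNF and TrkB are best known for their part in long-term potentiation, the synaptic strengthening that accompanies learning.

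Bdnf is transcribed from several separate first exons that are spliced to a shared coding exon, so the gene count adds all of them. The RefSeq promoter table (GRCm38.p6) held windows of the 250 bases before a start for 5 of the 8 genes, 12 windows in all, of which 7 belonged to Bdnf. Vgf, Sort1 and Ntrk3 had no entry. The windows were searched on both strands for TGACG, the core of the motif bound by CREB, a factor known for activity-dependent Bdnf transcription. These letters were in 17.8% of 32851 windows of this length and in 1 of the 12 windows of these genes, the Bdnf window at chr2:109692186-109692435 on the plus strand, where the match is on the reverse strand at position -35 from the transcription start. That window is shown, with the match in capitals, beside the first Bdnf window at chr2:109674450-109674699 (plus strand) and an Ntf3 window at chr6:126164961-126165210 (minus strand), because the 2 ligands moved together between libraries. A match of these letters is a description of the window only.
Bdnf start 3: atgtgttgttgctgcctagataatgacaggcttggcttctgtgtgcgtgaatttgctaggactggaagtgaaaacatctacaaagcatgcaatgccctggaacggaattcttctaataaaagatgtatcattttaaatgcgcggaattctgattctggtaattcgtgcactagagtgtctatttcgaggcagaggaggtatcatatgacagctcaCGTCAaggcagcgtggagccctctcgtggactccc
Bdnf start 1: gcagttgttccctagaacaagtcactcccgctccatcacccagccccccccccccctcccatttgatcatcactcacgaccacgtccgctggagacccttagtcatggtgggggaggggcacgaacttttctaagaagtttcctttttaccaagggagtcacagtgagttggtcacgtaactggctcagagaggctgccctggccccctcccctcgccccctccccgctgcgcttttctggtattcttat
Ntf3 start 2: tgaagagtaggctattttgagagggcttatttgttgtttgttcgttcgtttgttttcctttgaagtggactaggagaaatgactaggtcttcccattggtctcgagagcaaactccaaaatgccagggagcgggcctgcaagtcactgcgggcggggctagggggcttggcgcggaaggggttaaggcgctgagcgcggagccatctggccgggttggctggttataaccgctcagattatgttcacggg

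The values analysed were deposited counts of reads per gene. Totals per library ranged from 2242879 to 21112908 (median 10374007), and the 8 libraries with the fewest reads were 1 Young Veh, 2 Young PF4, 4 Old Veh and 1 Old PF4. These 8 are also the first 8 library columns of the deposited table, and the labels do not say whether they were sequenced separately. Levels are given as CPM, the gene's count scaled to the library's total after TMM normalization, and fold changes come from edgeR's quasi-likelihood test over all 47 libraries, with p-values adjusted by Benjamini-Hochberg over the 17778 genes and called at 0.05. All 10 dentate granule neuron markers and all 10 CA pyramidal neuron markers were detected, with summed levels of 479 to 794 CPM and 727 to 939 CPM across libraries. Choroid plexus markers, which neighbouring tissue brings, varied far more: their summed level ran from 12.0 to 4254 CPM in Young Veh, 93.9 to 3443 CPM in Young PF4, 15.04 to 4252 CPM in Old Veh and 25.9 to 3274 CPM in Old PF4. In bulk tissue, fewer cells of a type and less RNA per cell cannot be told apart.

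In these genes, 3 libraries stood apart, chosen after their values were seen. Young Veh replicate 4 and Old PF4 replicate 8 had the highest Bdnf levels of their groups and the lowest Ntrk2, Sort1 and Vgf levels. Young PF4 replicate 7 had the highest Ngfr and Vgf levels of all libraries. With all 3 left out together, 0 of the 8 genes were called in any of the 5 comparisons, as with all 47 libraries, while the count of all genes called in Old Veh against Young Veh went from 492 to 804. A less extreme form of the same profile was present in Young PF4 and Old Veh. Young PF4 replicate 4 had its group's highest Bdnf and lowest Ntrk2 and Vgf levels. Old Veh replicate 12 had its group's lowest Ntrk2, Sort1 and Vgf levels. Both stayed in, so leaving out the 3 removed a library of high Bdnf from Young Veh and Old PF4 only.

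The genes covered a wide range of levels. Per kilobase of merged exon, Sort1 was highest at 52.7 ± 6.48 CPM per kilobase (SD, n = 47), followed by Ntrk2 at 27.8 ± 2.77, Vgf at 17.2 ± 2.98, Bdnf at 9.86 ± 1.57, Ntf3 at 4.97 ± 1.02, Ntrk3 at 4.56 ± 0.361, Ngfr at 1.38 ± 0.492 and Igf1 at 1.32 ± 0.214. Sort1 stood at percentile 95.6 of the genes tested on this scale and Igf1 at percentile 23.97. Both Sort1 over Ntrk2 and Bdnf over Ntf3 held in 47 of 47 libraries, and Vgf was above Bdnf in 44. Ntf3 exceeded Ntrk3 in 30 of 47 libraries and Ngfr exceeded Igf1 in 24 of 47, so the members of these 2 neighbouring pairs did not differ beyond their spread. The exon length counts every annotated exon once, 30170 bases for Ntrk3 with 20 transcripts and 19292 bases for Ntrk2 with 10, so a gene with many isoforms is placed low on this scale. Without division by length, Ntrk2 stood above Sort1 (mean 536 and 398.5 CPM) and Ntrk3 above Ntf3 (mean 137.5 and 8.52 CPM). The order of these pairs therefore depends on the length used. The full-length and truncated forms of TrkB and TrkC are summed in the gene counts.

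**Figure D1:**
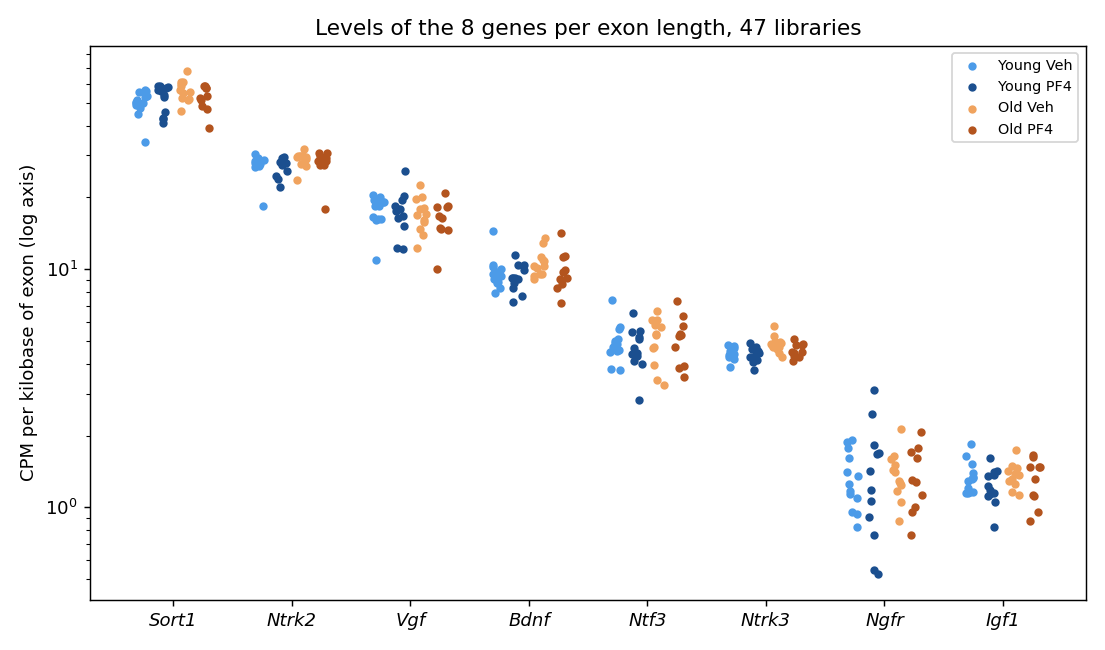
Level of the 8 genes in CPM per kilobase of merged exon (log axis), 1 point per library, coloured by group (Young Veh n = 13, Young PF4 n = 12, Old Veh n = 12, Old PF4 n = 10). The order runs from Sort1 (mean 52.7) to Igf1 (mean 1.32), and the points of Ntf3 and Ntrk3, and of Ngfr and Igf1, lie over each other.

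None of the 8 genes passed the test with age in the vehicle-treated mice, where 2.77% of all genes tested did (492 of 17778), 2.16% higher (384) and 0.607% lower (108) in Old Veh. The smallest p-values were those of the receptors Ntrk3 and Sort1, both higher in Old Veh, and the ligand Bdnf had a fold change between theirs with a larger error. The unadjusted p was under 0.05 for 2 of the 8 genes and for 2699 of all genes. Of the 8, 7 had a fold change above 0, with a median of 0.09 on the log2 scale, against -0.01 over all genes tested. Without the 3 libraries that stood apart, the fold changes were 0.20 for Bdnf, 0.12 for Ntf3, 0.03 for Ntrk2, 0.13 for Ntrk3, 0.18 for Ngfr, 0.13 for Sort1, -0.12 for Vgf and 0.05 for Igf1 on the log2 scale.

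Bdnf (ENSMUSG00000048482.14, chr2:109674700-109727007, plus strand, GRCm38) ranged in Young Veh from 49.5 to 89.6 CPM with a median of 58.0. Its lowest, median and highest levels were 45.1, 57.2 and 71.3 CPM in Young PF4, 56.5, 63.9 and 83.8 CPM in Old Veh, and 45.04, 58.6 and 88.0 CPM in Old PF4. The groups overlapped widely, although 11 of 12 Old Veh libraries lay above the Young Veh median. The log2 fold change of Old Veh against Young Veh was 0.13 ± 0.08 (SE; edgeR adjusted p = 0.459, 95% interval -0.03 to 0.30). Without Young Veh replicate 4 it was 0.19 (adjusted p = 0.154), with the length index described with the library measures as covariate 0.22 (edgeR adjusted p = 0.0698), and with the GC index as covariate 0.04 (edgeR adjusted p = 0.855). Without Old Veh replicate 1, the highest library of its group, the fold change was 0.10. An antisense gene, Gm45346, shares 896 exon bases with Bdnf and had 595 reads over all libraries against 29661 for Bdnf. The libraries carry no strand, so reads over the shared bases cannot be assigned.

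Ntf3 (ENSMUSG00000049107.13, chr6:126101412-126166910, minus strand), which encodes neurotrophin-3, was lower and more variable. Its lowest, median and highest levels were 6.47, 8.33 and 12.8 CPM in Young Veh and 4.83, 7.83 and 11.2 CPM in Young PF4. They were 5.62, 9.11 and 11.4 CPM in Old Veh and 6.07, 9.06 and 12.6 CPM in Old PF4. All 4 groups covered much the same range, from counts of 13 to 237 reads. With age in vehicle mice the log2 fold change was 0.05 (95% interval -0.18 to 0.28, edgeR adjusted p = 0.886). It was 0.01 without Old Veh replicate 12 and 0.12 without Young Veh replicate 4.

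Ntrk2 (ENSMUSG00000055254.15, chr13:58806569-59133970, plus strand) encodes TrkB, the receptor of mature BDNF. In Young Veh it lay between 356 and 590 CPM with a median of 541, and in Young PF4 between 428 and 568.1 CPM with a median of 538. Old Veh libraries lay between 456 and 614 CPM with a median of 570, and Old PF4 libraries between 345 and 593 CPM with a median of 550. The low ends in Young Veh and Old PF4 are single libraries, Young Veh replicate 4 and Old PF4 replicate 8. The age difference in vehicle mice was 0.07 ± 0.06 on the log2 scale (edgeR adjusted p = 0.615). It was 0.03 without Young Veh replicate 4, and 0.19 with the GC index as covariate, the library score described under Sort1 (edgeR adjusted p = 0.0575).

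Ntrk3 (ENSMUSG00000059146.12, chr7:78175959-78738012, minus strand), which encodes the neurotrophin-3 receptor TrkC, was the least variable of the 8, with a within-group SD of 0.10 on the log2 CPM scale. Its lowest, median and highest levels were 117, 133 and 146 CPM in Young Veh, 114, 131 and 148 CPM in Young PF4, 129, 146 and 174 CPM in Old Veh, and 124, 136 and 154 CPM in Old PF4. Old Veh stood above Young Veh: 11 of its 12 libraries exceeded the Young Veh median and 6 exceeded every Young Veh library, although the groups overlapped. The log2 fold change was 0.13 ± 0.04 (SE), a ratio of 1.09, which did not pass the threshold after adjustment (edgeR unadjusted p = 0.00299, adjusted p = 0.0767). It passed in 2 of 25 fits that left out 1 library, those without Old Veh replicate 11 (adjusted p = 0.0328) and without Young Veh replicate 6 (adjusted p = 0.0482). The lowest value of these fits was 0.10, without Old Veh replicate 1, the library with the highest Ntrk3 level. With a dentate granule neuron score as covariate, added after the data were seen, the fold change was again 0.13 (edgeR adjusted p = 0.0246), whereas with the choroid plexus score it was 0.09 (adjusted p = 0.316). Mean dentate scores were 5.37 in Young Veh and 5.35 in Old Veh, mean choroid scores 4.17 and 2.17 (mean log2 CPM of 10 markers), and their part in the result was not tested further.

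Ngfr (ENSMUSG00000000120.6, chr11:95568818-95587735, minus strand) encodes p75, which in the adult brain is known mainly from basal forebrain cholinergic neurons that project to the hippocampus. It was the most variable of the 8, with a within-group SD of 0.51 on the log2 CPM scale. Levels ran from 2.86 to 6.63 CPM in Young Veh (median 4.33), 1.80 to 10.8 CPM in Young PF4 (median 4.48), 3.03 to 7.32 CPM in Old Veh (median 4.65) and 2.65 to 7.13 CPM in Old PF4 (median 4.46). The medians lay close together and Young PF4 held both the lowest and the highest library. At counts of 8 to 176 reads a library, the age difference in vehicle mice had a wide 95% interval, from -0.27 to 0.50 on the log2 scale (estimate 0.11, edgeR adjusted p = 0.849). The estimate was 0.03 without Old Veh replicate 10, 0.18 without Young Veh replicate 4 and 0.28 with the choroid plexus score as covariate.

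Sort1 (ENSMUSG00000068747.14, chr3:108284082-108361511, plus strand) encodes sortilin, the sorting receptor that binds precursor neurotrophins. Its lowest, median and highest levels were 258, 380 and 427 CPM in Young Veh, 310, 415 and 445 CPM in Young PF4, 349, 422 and 513 CPM in Old Veh, and 295, 399 and 446 CPM in Old PF4. Old Veh was high, with 5 of 12 libraries above every Young Veh library and 11 above the Young Veh median. The log2 fold change was 0.17 ± 0.07 (SE), a ratio of 1.13, and did not pass the threshold (edgeR unadjusted p = 0.016, adjusted p = 0.191). With the GC index as covariate, a library score that contrasts genes of high and low GC content, the fold change was 0.27 (edgeR adjusted p = 0.0188). That index averaged 0.04 in Young Veh and -0.07 in Old Veh (log2 units), and its part in the result was not tested further. Other fits gave smaller fold changes: 0.12 with the length index (edgeR adjusted p = 0.315) and 0.14 with the choroid plexus score (edgeR adjusted p = 0.378). Without Young Veh replicate 4 the value was 0.13. The antisense gene Gm12523 shares 338 exon bases with Sort1 and had 2114 reads against 189479.

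Vgf (ENSMUSG00000037428.14, chr5:137026392-137033351, plus strand) encodes a neuronal secretory granule protein that neurotrophins induce. Its lowest, median and highest levels were 32.4, 54.7 and 61.0 CPM in Young Veh, 35.99, 52.5 and 76.5 CPM in Young PF4, 36.4, 50.5 and 67.2 CPM in Old Veh, and 29.9, 49.1 and 62.0 CPM in Old PF4. It was the only member with a fold change below 0 in Old Veh against Young Veh, at -0.07 ± 0.10 on the log2 scale (edgeR adjusted p = 0.818), and the value was 0.15 with the GC index as covariate. Igf1 (ENSMUSG00000020053.18, chr10:87858265-87937042, plus strand), the insulin-like growth factor that supports neuronal survival, ran from 11.4 to 18.3 CPM in Young Veh (median 13.0), 8.18 to 16.0 CPM in Young PF4 (median 12.0), 11.2 to 17.3 CPM in Old Veh (median 13.6) and 8.71 to 16.5 CPM in Old PF4 (median 13.8). Its age difference was 0.00 on the log2 scale with a 95% interval from -0.18 to 0.19 (edgeR adjusted p = 0.993).

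**Figure D2:**
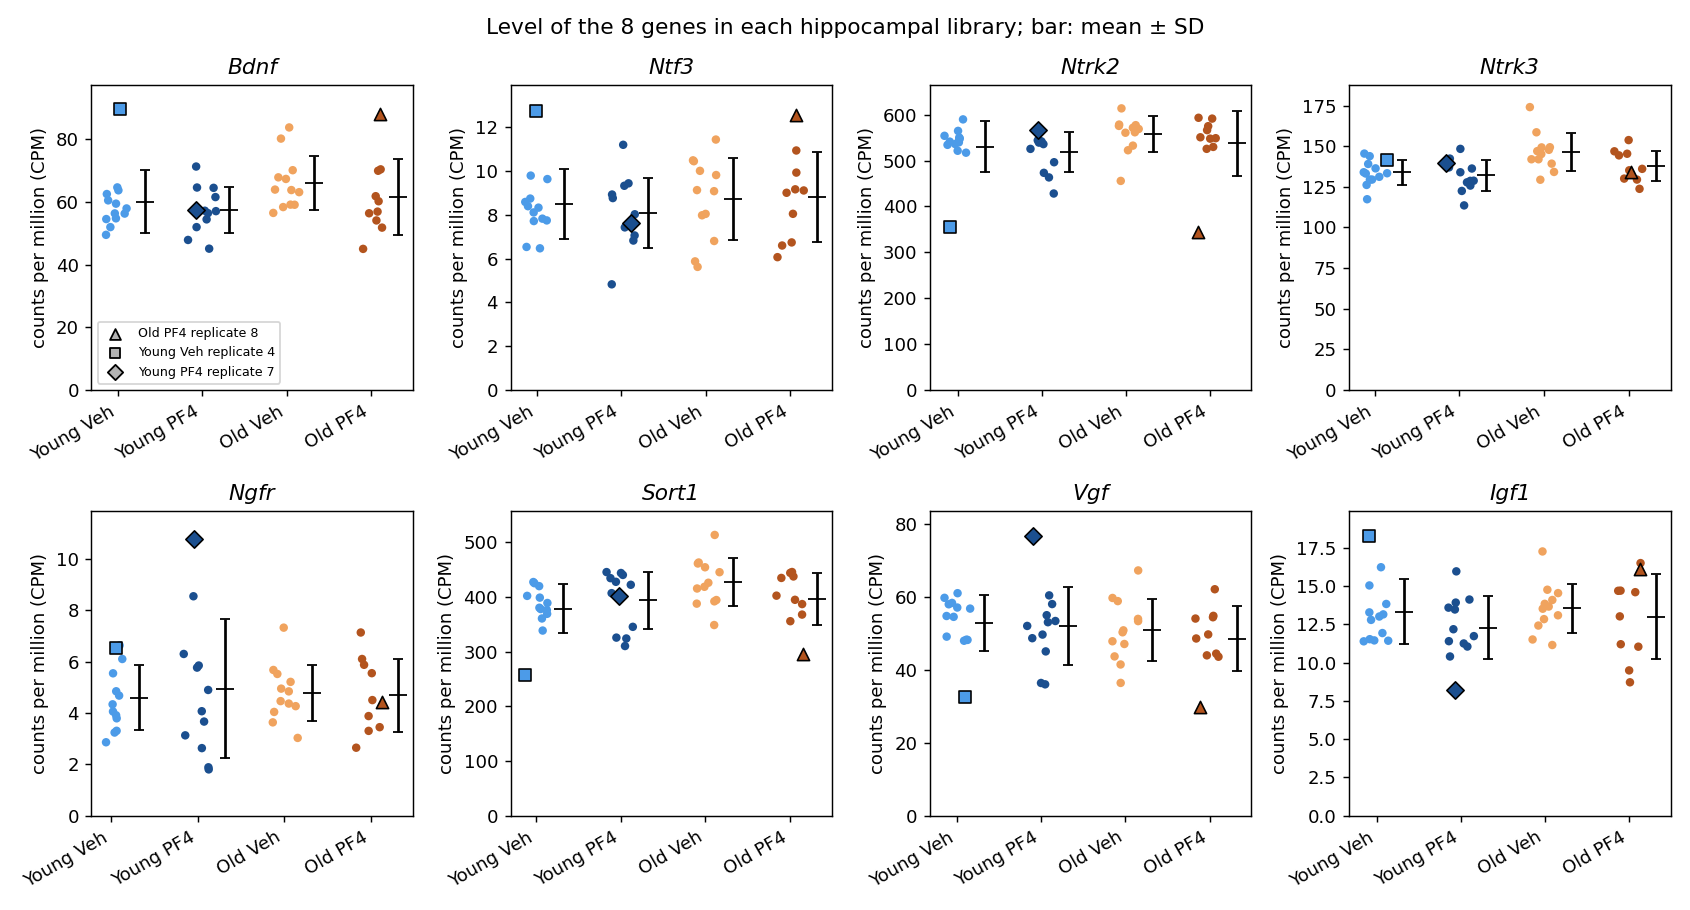
Level of each of the 8 genes in every library (CPM, axes from 0), with group mean ± SD to the right of the points. Square, triangle and diamond mark Young Veh replicate 4, Old PF4 replicate 8 and Young PF4 replicate 7, which carry the extreme values of Ntrk2 (356 and 345 CPM) and Ngfr (10.8 CPM).

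The age comparison was repeated in PF4-treated mice, which share no library with the vehicle-treated ones. Again 0 of the 8 genes passed, against 0.332% of all genes tested (59 of 17778), 0.304% higher and 0.0281% lower in Old PF4. None of the 8 had an unadjusted edgeR p under 0.05, while 1471 of all genes did. Ntrk3 had a log2 fold change of 0.06 ± 0.04 (SE), Bdnf 0.09 ± 0.09, Ntf3 0.11 ± 0.12, Igf1 0.10 ± 0.10 and Ntrk2 0.05 ± 0.07, with adjusted p from 0.788 to 0.91. Sort1, which had the largest difference in vehicle mice, was at 0.01 ± 0.07 (95% interval -0.14 to 0.16). Vgf was at -0.10 ± 0.11 and Ngfr at -0.09 ± 0.20. The Ngfr value was 0.11 without Young PF4 replicate 7, and the Bdnf value 0.01 without Old PF4 replicate 8. Without the 3 libraries that stood apart, Ntf3 was at 0.02, Ntrk2 at 0.12, Ntrk3 at 0.07, Ngfr at 0.13, Sort1 at 0.05, Vgf at 0.03, and Bdnf and Igf1 at 0.01 and 0.00.

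PF4 treatment of old mice gave no called member either, against 0.0337% of all genes (6 of 17778), 0.0112% higher (2) and 0.0225% lower (4) in Old PF4. All 8 fold changes lay below 0, with a median of -0.05 on the log2 scale against 0.01 over all genes tested, and none had an unadjusted edgeR p under 0.05. Old Veh is the reference here and the first group of the vehicle age comparison, so a high Old Veh value enters both with opposite sign. Dentate granule neuron markers moved the same way, with 9 of 10 below 0, a median of -0.11 and none called, none at 0 in all libraries, and summed levels of 484.5 to 794 CPM in Old Veh and 484.9 to 622 CPM in Old PF4. With the dentate score as covariate, added after the data were seen, Bdnf and Ntrk3 were both at -0.05, against -0.11 and -0.09 without it. Ntf3 turned from -0.01 to 0.06 with this covariate. Old Veh replicate 1 had its group's highest dentate score, Bdnf level and Ntrk3 level, and without that library Ntrk3 was at -0.06. Vascular markers lay below 0 for 7 of 10 (median -0.08), and oligodendrocyte markers above 0 for 10 of 10 (median 0.05). The part of these cell types in the differences was not tested. Bdnf was at -0.11 ± 0.09 (SE; 95% interval -0.29 to 0.07), with 4 of 10 Old PF4 libraries below every Old Veh library and 1 above. Without Old PF4 replicate 8, the highest library, the Bdnf value was -0.19 (edgeR adjusted p = 0.702), and without Old PF4 replicate 3, the lowest, it was -0.07 (edgeR adjusted p = 0.981). Ntrk3 was at -0.09 ± 0.04 (unadjusted p = 0.0512, adjusted p = 0.809), a ratio of 0.941 with a 95% interval of 0.885 to 1.00, and 2 of 10 Old PF4 libraries exceeded the Old Veh median. Sort1 was at -0.11 ± 0.07, and Ntrk2, Vgf, Igf1 and Ngfr lay between -0.05 and -0.04. Ntf3 was at -0.01 ± 0.12. Ntrk2 and Vgf moved both ways with the choice of fit: they were at 0.00 and 0.01 without Old PF4 replicate 8 and both at 0.01 with the length index as covariate, but at -0.11 and -0.17 with the GC index. The length index also gave -0.20 for Bdnf and -0.04 for Sort1. Leaving out the 3 libraries gave -0.19 for Bdnf, -0.08 for Ntf3, -0.08 for Ntrk3, -0.03 for Ngfr, -0.06 for Sort1, -0.09 for Igf1, 0.00 for Ntrk2 and 0.02 for Vgf.

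PF4 treatment of young mice gave 0 called genes of all 17778 (0%) with edgeR and 0 with DESeq2, and 213 genes had an unadjusted p under 0.05, none of them a member. Igf1 had a log2 fold change of -0.15 ± 0.09 (SE), and 4 of 12 Young PF4 libraries lay below every Young Veh library. Without the 3 libraries that stood apart the Igf1 value was -0.04. Ngfr was at 0.15 ± 0.19, and at -0.05 without Young PF4 replicate 7. The other 6 genes lay between -0.06 and 0.06, and the 95% intervals of Bdnf (-0.23 to 0.10), Ntrk2 (-0.15 to 0.09) and Ntrk3 (-0.10 to 0.06) bound the difference that could have been missed. Without the 3 libraries that stood apart, Vgf was at -0.14, Ntrk2 at -0.08, Ntrk3 at -0.02, Bdnf at 0.00, and Ntf3, Ngfr and Sort1 at 0.02.

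The difference between the PF4 effects at the 2 ages was tested as an interaction term. It was called for 0 of 17778 genes (0%), with 707 genes and none of the members under an unadjusted p of 0.05, and DESeq2 also called 0. Sort1 had the smallest p of the 8, with an interaction of -0.16 ± 0.10 on the log2 scale (edgeR unadjusted p = 0.114, adjusted p = 1). Ngfr was at -0.20 ± 0.28 and at -0.003 without Young PF4 replicate 7. Bdnf was at -0.05 ± 0.12 and Ntrk3 at -0.07 ± 0.06. Without the 3 libraries, Bdnf was at -0.19, Ntf3 at -0.10, Ntrk2 at 0.09, Ntrk3 at -0.06, Ngfr at -0.05, Sort1 at -0.08, Vgf at 0.15 and Igf1 at -0.05.

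**Figure D3:**
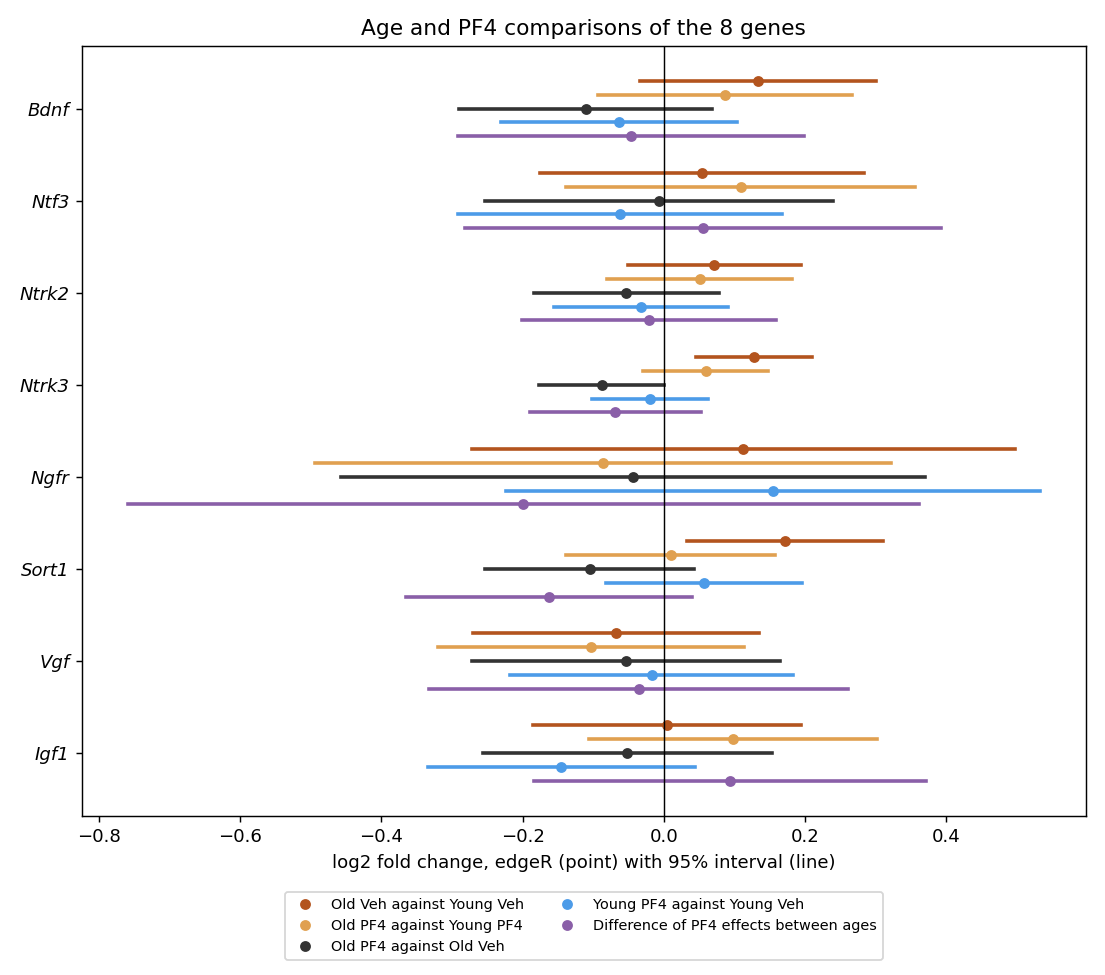
Log2 fold change of the 8 genes (edgeR, point) with its 95% interval (line) in the age comparisons, the PF4 comparisons and the difference of PF4 effects between ages. The intervals of Ntrk3 and Sort1 in Old Veh against Young Veh leave out 0, and none passed after adjustment over all genes.

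Among the relatives of these genes, Ntf5, which encodes neurotrophin-4, did not pass the count filter. It had 0 reads in 12 of 47 libraries, where a count of 0 allows up to 0.142 to 1.12 CPM (counting error only), and at most 16 reads elsewhere. The libraries at 0 were 1 of 13 Young Veh, 1 of 12 Young PF4, 5 of 12 Old Veh and 5 of 10 Old PF4, and the group means were 0.484 ± 0.322, 0.53 ± 0.445, 0.301 ± 0.379 and 0.219 ± 0.329 CPM (SD). The ranges of the 4 groups overlapped, and the difference was not tested. Median totals were 12203163 reads in Young Veh, 10515336 in Young PF4, 7730491.5 in Old Veh and 9565270.5 in Old PF4. At so few reads of Ntf5, a count of 0 also depends on this depth. The sortilin relatives Sorcs1 (mean 13.9 CPM over all libraries), Sorcs2, Sorcs3 and Sorl1 were all above the filter, and none was called. Sorcs3 had an age difference of 0.11 ± 0.05 in vehicle mice (edgeR adjusted p = 0.214).

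Around the receptors, the pathway lists held few called genes, and those called in vehicle mice with age were higher in Old Veh. In Old Veh against Young Veh, 2.16% of all genes tested rose and 0.607% fell, the shares to set beside each list. Of 34 Trk adaptor and signalling genes tested, 1 rose and 0 fell (list median 0.00, all genes -0.01, log2 scale). Of 14 p75 partner genes, 1 rose and 0 fell: Rtn4, which encodes the myelin-associated inhibitor Nogo, by 0.16 ± 0.03 (edgeR adjusted p = 0.00357). The list median was -0.04. Oligodendrocyte markers went the same way as Rtn4 between these groups: 9 of 10 lay above 0 with a median of 0.09 and 1 was called. Their summed level ran from 5809 to 7248 CPM in Young Veh and 5607 to 8824 CPM in Old Veh. Microglia markers went this way too, with 10 of 10 above 0, a median of 0.17 and 2 called. The part of either in the Rtn4 difference was not tested. Of 14 genes that regulate Bdnf transcription, 2 rose and 0 fell (median 0.03), among them Mef2a, a transcription factor downstream of calcium signals, by 0.14 ± 0.03 (edgeR adjusted p = 0.00682). None of the 12 genes tested for precursor processing and sorting passed (median 0.01), and none of 12 secretory granule genes (median 0.01). In PF4-treated mice the age comparison, with 0.304% of all genes higher, called 1 gene of these lists, Pcsk6, a proprotein convertase, which rose by 0.37 ± 0.08 (edgeR adjusted p = 0.0139) from 13.6 ± 2.13 to 17.4 ± 1.92 CPM. In vehicle mice its age difference was 0.04 ± 0.07 (edgeR adjusted p = 0.853), and the difference between these age differences was not called (0.32 ± 0.11, edgeR adjusted p = 1). Oligodendrocyte markers went the same way as Pcsk6 in PF4-treated mice: 10 of 10 lay above 0 with a median of 0.22 and 2 were called. Their summed level ran from 4492 to 8375 CPM in Young PF4 and 6689 to 8093 CPM in Old PF4. Microglia markers went this way too, with 10 of 10 above 0, a median of 0.26 and 3 called. The part of either in the Pcsk6 difference was not tested.

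In Old PF4 against Old Veh, with 0.0225% of all genes lower, 1 of the 14 genes that regulate Bdnf transcription fell and no other pathway list held a called gene. The count of all genes called there, 6, ran from 0 to 24 under the alternatives run. The list medians ran from -0.04 for the other neurotrophins and receptors to 0.08 for the immediate early genes on the log2 scale, beside 0.01 for all genes tested. In young mice no list had a called gene.

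Among the 14 IGF axis genes tested, 1 rose and 0 fell in Old Veh against Young Veh (2.16% and 0.607% over all genes), with a list median of -0.12 on the log2 scale. The gene was Insr, the insulin receptor, higher by 0.27 ± 0.05 (edgeR adjusted p = 0.00172), from 33.6 ± 3.23 to 40.6 ± 2.62 CPM. Igf1r, the receptor of IGF-1, was at -0.06 in the age comparison of vehicle mice and at 0.04 in the PF4 comparison of old mice on the log2 scale, with group means of 85.3 to 88.8 CPM. Igf2 and the binding protein gene Igfbp2 varied widely between libraries, with 30.6 ± 15.4 CPM of Igf2 in Young Veh and 20.3 ± 20.7 CPM in Old Veh (SD). Igfbp2 had means of 51.0 ± 27.6 CPM in Young Veh and 28.2 ± 23.9 CPM in Old Veh, a log2 fold change of -0.84 ± 0.37 that was not called (edgeR adjusted p = 0.25). Choroid plexus markers, of which 0 of 10 were called and 10 of 10 lay below 0 (median -0.92), went the same way as this difference. Leptomeninges markers did too, with 10 of 10 below 0 (median -0.50), 1 called lower and summed levels of 80.5 to 333 CPM in Young Veh and 52.6 to 252 CPM in Old Veh. The part of either in it was not tested.

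Within groups, the members varied between libraries with SDs from 0.10 for Ntrk3 to 0.51 for Ngfr on the log2 CPM scale, and partly in a shared pattern. Group means of log2 CPM were removed, and 132 relations were computed over the 47 libraries, with p from 100000 permutations within groups and Benjamini-Hochberg adjustment over the 132. Of the 28 pairs of members, 11 passed by Pearson's r, 5 above 0 and 6 below, and 10 of these also by Spearman's rho. Bdnf and Ntrk2, ligand and receptor, were opposed, with r = -0.745 (permutation adjusted p = 0.00033) and rho = -0.532 (adjusted p = 0.00726). The relation was -0.568 without the 2 libraries farthest from the median of Bdnf, -0.759 in the 39 deeper libraries and -0.466 in the 8 with the fewest reads. Young Veh replicate 4 and Old PF4 replicate 8 lay farthest out, at 89.6 and 88.0 CPM of Bdnf and 356 and 345 CPM of Ntrk2. The raw permutation p of r was 1e-05, the smallest that these permutations can give.

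Bdnf and Ntf3 rose and fell together, with r = 0.548 (permutation adjusted p = 0.00216) and rho = 0.463 (adjusted p = 0.0226). The value was 0.412 without the 2 farthest libraries, 0.588 in the 39 deeper libraries and 0.30 in the 8 others. Sort1 and Vgf had r = 0.761 (permutation adjusted p = 0.00033) and rho = 0.665 (adjusted p = 0.00132). It was 0.649 without the 2 farthest libraries and 0.827 in the 39 deeper ones, but 0.045 in the 8 with the fewest reads, so it was not seen within those 8. Ntrk2 was above 0 with both, at r = 0.698 with Sort1 (rho = 0.456, permutation adjusted p = 0.00106 and 0.0229) and r = 0.741 with Vgf (rho = 0.424, permutation adjusted p = 0.00033 and 0.0301). The pair Ntrk2 and Sort1 had r = 0.741 in the 39 deeper libraries and -0.32 in the 8 others. For Ntrk2 and Vgf these were 0.759 and 0.747, and without the 2 farthest libraries the pairs were at 0.486 and 0.593.

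**Figure D4:**
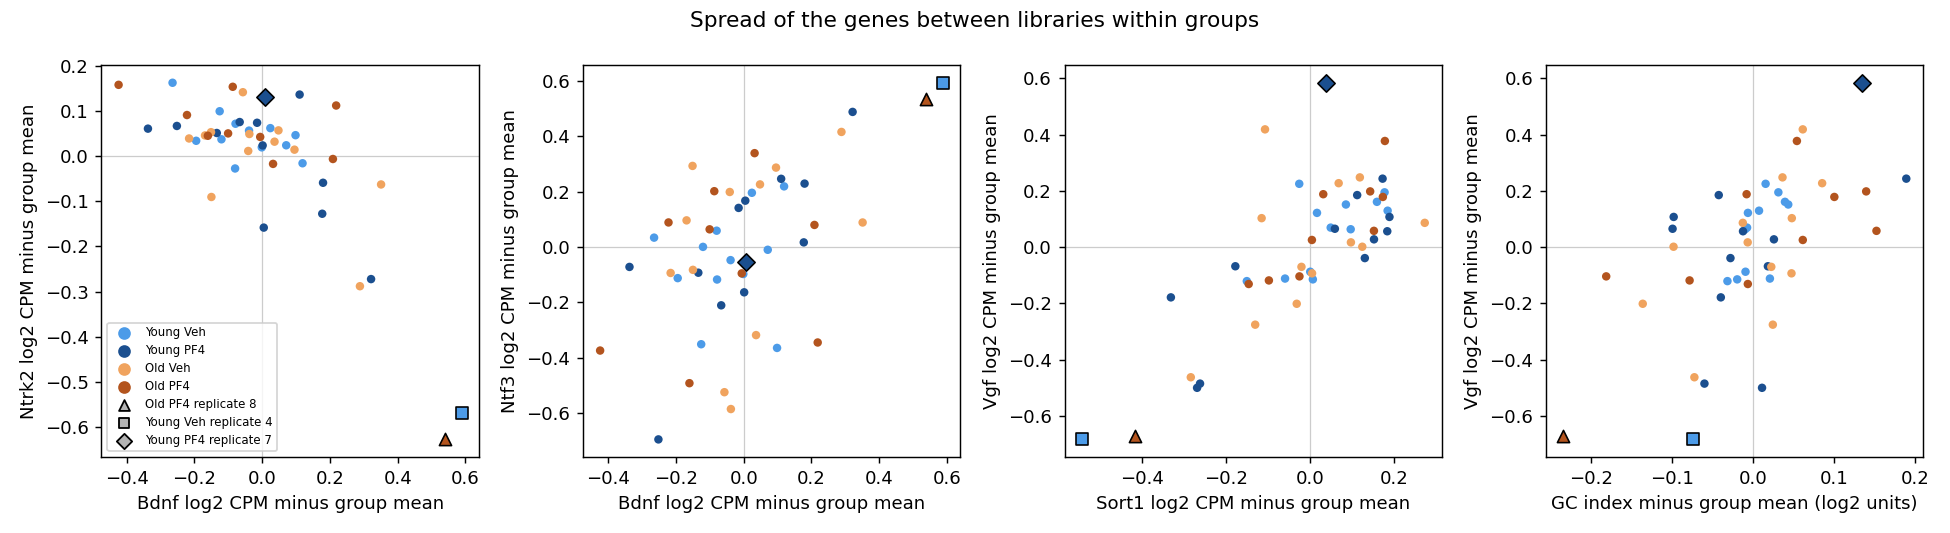
Departures of log2 CPM from the group mean, 1 point per library (n = 47), for Bdnf with Ntrk2 (r = -0.745), Bdnf with Ntf3 (r = 0.548), Sort1 with Vgf (r = 0.761) and the GC index with Vgf (r = 0.599). Square and triangle, Young Veh replicate 4 and Old PF4 replicate 8, lie at the far ends of the first 3 panels, and the relations were smaller without the 2 farthest libraries (-0.568, 0.412 and 0.649).

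These patterns moved with library-wide measures. A length index contrasted genes with at least 6276 and at most 2394 bases of merged exon, and the GC index genes whose longest transcript has at least 54.2% and at most 44.1% GC. Vgf, itself 64.1% GC in its longest transcript, had r = 0.599 with the GC index (rho = 0.595, permutation adjusted p = 0.0011 and 0.00198), 0.507 without the 2 farthest libraries, 0.619 in the 39 deeper libraries and 0.69 in the 8 others. Ntrk2 had r = 0.535 with the GC index (rho = 0.472, permutation adjusted p = 0.00181 and 0.0172), 0.361 without the 2 farthest libraries, 0.615 in the 39 and 0.723 in the 8. Bdnf, with 6217 bases of merged exon and 40.9% GC, had r = -0.54 with the length index (rho = -0.408, permutation adjusted p = 0.00294 and 0.0385). It was -0.431 without the 2 farthest libraries, -0.586 in the 39 and -0.50 in the 8. The relation of Bdnf with the GC index did not pass, at r = -0.33 and rho = -0.176 (permutation adjusted p = 0.13 and 0.465). Ntf3 had r = -0.492 with the length index (rho = -0.417, permutation adjusted p = 0.00415 and 0.0345). It was -0.471 without the 2 farthest libraries and -0.587 in the 39, but 0.0286 in the 8. Young Veh replicate 4 had the lowest length index (-0.26) and GC index (-0.03) of its group. Old PF4 replicate 8 likewise had the lowest length index (-0.15) and GC index (-0.26) of its group. The share of these measures in the relations between members was not tested.

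Markers of hippocampal neurons moved with Bdnf, Ntrk3 and Ngfr. Of 88 relations with marker or activity scores, 7 passed by both r and rho. Ntrk3 had r = 0.573 with the CA pyramidal score (rho = 0.542, permutation adjusted p = 0.0017 and 0.00726), 0.612 without the 2 farthest libraries, 0.641 in the 39 deeper libraries and 0.587 in the 8 others. With the dentate score it had r = 0.569 (rho = 0.522, permutation adjusted p = 0.00185 and 0.00792), 0.492 without the 2 farthest, 0.57 in the 39 and 0.762 in the 8. Bdnf had r = 0.465 with the CA pyramidal score (rho = 0.525, permutation adjusted p = 0.00968 and 0.00792), 0.443 without the 2 farthest, 0.452 in the 39 and 0.643 in the 8. With the dentate score Bdnf had r = 0.428 (rho = 0.511, permutation adjusted p = 0.0146 and 0.00792), 0.402 without the 2 farthest, 0.437 in the 39 and 0.28 in the 8. Ngfr went the other way with the CA pyramidal score, at r = -0.516 (rho = -0.505, permutation adjusted p = 0.00294 and 0.00891), -0.493 without the 2 farthest, -0.465 in the 39 and -0.758 in the 8. Markers of neighbouring tissue moved with the same receptors. Ntrk3 had r = -0.429 with the choroid plexus score (rho = -0.407, permutation adjusted p = 0.0224 and 0.042), -0.397 without the 2 farthest, -0.428 in the 39 and -0.455 in the 8. Ngfr had r = 0.39 with the leptomeninges score (rho = 0.384, permutation adjusted p = 0.0288 and 0.0476), 0.335 without the 2 farthest, 0.425 in the 39 and 0.379 in the 8. Immediate early genes, which report recent neuronal activity, had no relation with a member that passed, including Bdnf and Vgf, both known as activity-induced. Their values were r = 0.0667 for Bdnf and r = 0.127 for Vgf (permutation adjusted p = 0.792 and 0.596), with rho = 0.00254 for each.

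**Figure D5:**
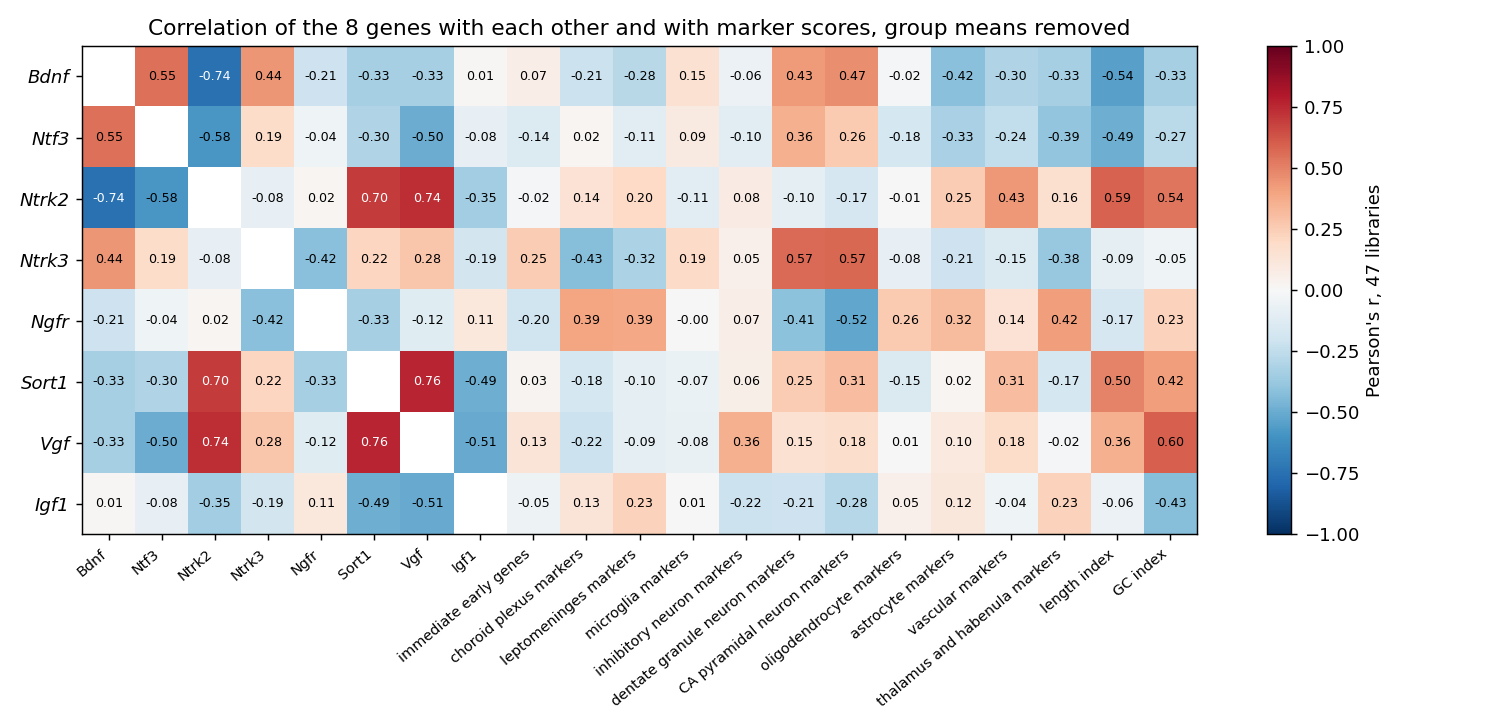
Pearson's r over 47 libraries, group means removed, between the 8 genes (rows) and each other, 11 marker or activity scores, the length index and the GC index (columns), from -1 (blue) to 1 (red). Bdnf and Ntf3 are opposed to Ntrk2, which goes with Sort1 and Vgf, and the column of immediate early genes runs from -0.203 to 0.252.

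The genes whose library pattern was most like each member were sought among genes with a mean of at least 50 counts, as a description with no test, since all points share the same libraries, depths and base composition (n = 47, group means removed). For Bdnf they were Neurod6 (r = 0.837), a CA pyramidal neuron transcription factor that is among the CA markers used, Fgf13 (0.816) and Arpc4 (0.811). Ntrk2 was nearest to Lasp1 (0.91), Kif5a (0.903) and Taok2 (0.897), and Sort1 to Numbl (0.901), Rab11fip3 (0.90) and Fbxl16 (0.895). Vgf was near Chga (0.898), the granule protein chromogranin A, and Gnao1 (0.897). Ntrk3 was nearest to Wipf3 (0.743) and Nr4a3 (0.707). The less abundant genes had weaker matches: Ntf3 with Gm17529 (0.654), Epor (0.643) and Cdkn2aipnl (0.642), Ngfr with Ehd4 (0.639), Rela (0.592) and Anxa5 (0.587), and Igf1 with Wdr12 (0.619), Map3k1 (0.611) and Klhdc9 (0.597).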

How the data were processed

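Hippocampal RNA of 47 mice was made into unstranded libraries by Smart-Seq2 and Nextera XT. The deposited table holds whole-number read counts for each gene, which the authors had not normalized. The submitters' processing notes name Trim Galore 0.3.7, STAR 2.5.3a, GRCm38 and DESeq2, and the counting tool is not given in the sources used here. The study left out libraries of low coverage.

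Counts were analysed with edgeR 4.0.16 in R 4.3.3 (TMM, filterByExpr, 1 term per group, quasi-likelihood test, Benjamini-Hochberg adjustment over 17778 genes). Total counts ran from 2242879 to 21112908 a library, which limits genes with few reads such as Ngfr and Ntf3. SE is the size of the log2 fold change over the root of the F statistic, and 95% intervals use the t distribution of the fit. Log2 CPM used a prior count of 2. Scores are means of log2 CPM over markers. Both library indices are differences of mean centred log2 CPM between genes of long and short exon length, or high and low GC, from GENCODE M21 (99.3% of genes tested had both). Promoter windows are from RefSeq. Named genes were all 8 members, their listed relatives, called genes of the pathway lists and the 3 genes most alike to each member, some of which are not reported here. The members, lists and tests were chosen with earlier results of these data known. The cholinergic genes and the 3 libraries left out together were chosen after their values were seen. Alternatives were DESeq2 1.42.0, a count filter of any read or of 1 CPM in 10 libraries, its size factors, a fit of only the 2 groups at hand, a block for replicate number, covariates (choroid score, length index and, added after the data were seen, dentate score and GC index), and leaving out the 8 libraries with the fewest reads or each library in turn. Replicates were separate mice and no 2 libraries agreed within sampling noise (lowest mean chi-square per gene 1.95). The fit was tested on simulated counts.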

Additional observations from a re-analysis of the deposited data

Results flagged for a closer look

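Among the genes and groups of 4 to 10 libraries, which here means Old PF4 (n = 10), the lowest library lay far from the others on the log2 CPM scale for Ntrk2 and Vgf. Old PF4 replicate 8 had 345 CPM of Ntrk2 where the next library had 525.6, a gap of 0.777 of the group's whole range in log2 CPM and 0.728 in CPM. It had 29.9 CPM of Vgf where the next library had 43.6, a gap of 0.516 of the range in log2 CPM but 0.425 in CPM. Dixon's critical value for 10 libraries is 0.466, and chance passes it in about 1 in 20 groups. Ntrk2 passed it on both scales and Vgf in log2 CPM only. The gap for Sort1 in the same library was 0.453 in log2 CPM and 0.403 in CPM. The library also had the lowest length index (-0.15) and GC index (-0.26) of its group, and their part in these values was not tested.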

How the results depend on the processing

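No member was called in Old PF4 against Young PF4, in either PF4 comparison or in the difference of PF4 effects under any alternative run. In Old Veh against Young Veh 1 member was called with the dentate score as covariate (Ntrk3, 0.13, edgeR adjusted p = 0.0246), 1 with the GC index (Sort1, 0.27, adjusted p = 0.0188) and 0 to 1 with a library left out (Ntrk3, 2 of 25 fits, 0.14 and 0.15). Of 472 values under the other alternatives, 436 kept their direction and side of the threshold and 34 turned direction, and of 1128 with a library left out, 1082 did and 44 turned. Every value that turned was of a member that was not called. The cause was not tested. Depth limits Ngfr, Ntf3 and Igf1, whose lowest counts were 8, 13 and 27 reads.

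Counts of all genes called moved more. The DESeq2 counts come from 27514 genes with its own size factors and filtering, against 17778 in the edgeR fit, so the test and the genes tested changed together and cannot be told apart. Its size factors alone in edgeR gave 60 and 6 in the 2 comparisons where its count moved. In Old Veh against Young Veh (492) they were 176 without the 8 libraries with the fewest reads, of which 4 are Old Veh and which stand first in the deposited table (a separate sequencing run is neither stated nor tested), 920 with the GC index and 804 without the 3 libraries that stood apart, and 356 to 593 with a library left out. In Old PF4 against Young PF4 (59) DESeq2 gave 90 and the groups alone 21, and leaving out a library 36 to 91. In Old PF4 against Old Veh (6) DESeq2 gave 24, the groups alone 0, the choroid score 10, the length index 0, the dentate score 1, the GC index 21, the libraries without the 8 with the fewest reads 0, and leaving out a library 0 to 20. The difference of PF4 effects (0) had 1 gene with any count allowed.

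The labels do not say whether replicate numbers pair the mice. Correlations of same-numbered libraries ran from -0.425 to 0.554, with means of -0.04 to 0.08 by comparison, which cannot settle it. With the replicate block 90 genes were called in Old PF4 against Young PF4 and 10 in Old PF4 against Old Veh, Sort1 was at -0.02 in the former, Ntf3 at 0.02, Ntrk2 at -0.10 and Vgf at -0.11 in the latter, and no member's call changed.

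Log2 fold changes that turned were these. With the choroid score, Ngfr was at 0.04 and Sort1 at -0.02 in Old PF4 against Young PF4. With the length index, Ntrk2 and Vgf were at 0.01 in Old PF4 against Old Veh, and the difference of PF4 effects was -0.09 for Ntf3, 0.06 for Ntrk2 and 0.04 for Vgf. Without the 8 libraries, Igf1 was at -0.03 in Old Veh against Young Veh, Vgf at 0.01 in Old PF4 against Old Veh, and the difference was -0.03 for Ntf3, 0.01 for Ntrk2 and 0.02 for Vgf. With the dentate score, Igf1 was at 0.00 in Old Veh against Young Veh, Ntf3 at 0.06 in Old PF4 against Old Veh and the difference for Bdnf at 0.00. With the GC index, Ntf3 was at -0.04, Vgf at 0.15 and Igf1 at -0.13 in Old Veh against Young Veh, Ngfr and Vgf at 0.03 in Old PF4 against Young PF4, and Ntf3 at 0.04 and Igf1 at 0.01 in Old PF4 against Old Veh. Without the 3 libraries, Ngfr was at 0.13 and Vgf at 0.03 in Old PF4 against Young PF4, Ntrk2 at 0.00 and Vgf at 0.02 in Old PF4 against Old Veh, Bdnf at 0.00 and Ntf3 at 0.02 in Young PF4 against Young Veh, and the difference was -0.10 for Ntf3, 0.09 for Ntrk2, 0.15 for Vgf and -0.05 for Igf1.

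With a library left out, the values of those that turned spanned, in Old Veh against Young Veh, -0.02 to 0.05 for Igf1. In Old PF4 against Young PF4 they spanned -0.18 to 0.11 for Ngfr and -0.02 to 0.05 for Sort1. In Old PF4 against Old Veh they spanned -0.08 to 0.04 for Ntf3, -0.08 to 0.00 for Ntrk2, -0.13 to 0.04 for Ngfr and -0.10 to 0.01 for Vgf. In Young PF4 against Young Veh they spanned -0.11 to 0.01 for Ntf3, -0.03 to 0.00 for Ntrk3, -0.05 to 0.24 for Ngfr and -0.09 to 0.03 for Vgf. The difference of PF4 effects spanned -0.02 to 0.10 for Ntf3, -0.05 to 0.03 for Ntrk2 and -0.09 to 0.03 for Vgf.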

Other observations

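Young PF4 replicate 7, which had the highest Ngfr level (10.8 CPM, 176 reads), also held reads of genes that mark basal forebrain cholinergic neurons. This list was chosen after the values were seen and has no test. Chat, which encodes choline acetyltransferase, had 65 reads (3.97 CPM) where the next library had 0.734 CPM, and was at 0 in 24 libraries. Slc18a3, the vesicular acetylcholine transporter, had 45 reads, and Slc5a7, the choline transporter, 132 reads. The transcription factor genes Lhx8 and Gbx1 had 48 and 37 reads. Isl1 and Zic1 were highest in another library, Young Veh replicate 13. The part of tissue composition in the Ngfr level was not tested.

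A different library, Young PF4 replicate 8, had the highest levels of the thalamic genes Tcf7l2 (154 CPM, next 67.1) and Prkcd (185 CPM, next 63.7). The relation of Ngfr with the thalamus and habenula score did not pass, with r = 0.416 and rho = 0.312 (permutation adjusted p = 0.0726 and 0.122). It was 0.379 without the 2 libraries farthest out, 0.372 in the 39 deeper libraries and 0.625 in the 8 others.

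Microglia markers, as a reference for the size of an age difference, lay above 0 for 10 of 10 genes in both age comparisons, with medians of 0.17 and 0.26 on the log2 scale. Of the 10, 2 were called by edgeR in vehicle mice and 3 in PF4 mice, among them C1qa (0.28 and 0.42) and C1qb (0.28 and 0.40).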
